A study of Homo sapiens with 3 samples.

Results

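The genes described here encode the protein folding machinery of the endoplasmic reticulum (ER), the sensors that report on it and the apparatus that removes proteins it fails to fold. They were taken as a list of 40 gene names sorted into 6 roles, and not by a cut on their measured values. The list was chosen with earlier results of these data known. The count table held 37 of them under the listed name and ERO1A under its older name ERO1L, which makes 38 members of 13247 protein-coding genes in all, while ERP44 and EDEM3 are not analysed here. Their reads come from RNA immunoprecipitation sequencing (RIP-seq), in which Flag beads pulled down the RNA helicase DDX49 with the RNA attached to it. All 3 libraries belong to 1 group of the human liver line HHL5, labelled as embryonic liver cells of WT genotype. The cells carried the transfected Flag-DDX49 construct, were kept for 24 h with 1.5 mM OA/PA at 2 parts to 1, and were cross-linked with ultraviolet light before the pull-down. No input, mock pull-down or untreated library was analysed here, so reads of a gene reflect both how much of its RNA the cells held and how well DDX49 recovered it, and the comparisons below are between libraries and between genes.

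Secreted and membrane proteins are made at the ER and fold inside it, and the membrane-bound calnexin and the soluble calreticulin hold those that carry a monoglucosylated sugar. The HSP70 protein BiP (HSPA5) with its J-domain partners and the HSP90 protein GRP94 (HSP90B1) bind exposed peptide stretches, while protein disulfide isomerases form and reshuffle cysteine bonds. When unfolded protein builds up, IRE1 (ERN1) splices the XBP1 mRNA and ATF6 travels to the Golgi, where the proteases MBTPS1 and MBTPS2 free its transcription factor part. Both routes switch on chaperone genes and genes of ER-associated degradation, in which misfolded proteins are pulled out through the SEL1L and SYVN1 complex, extracted by the ATPase VCP and passed to the proteasome.

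The libraries held 2023133, 1461858 and 1096586 counts in replicates 1, 2 and 3, so that 1 count equalled 0.494, 0.684 and 0.912 counts per 1000000 (CPM) and replicate 1 carried the smallest counting error. Whether the replicates were separate cultures is not in the labels, and tests between them measure a spread that may be technical. DDX49, the bait, was the gene with the most reads in each library, at 3.53%, 4.15% and 5.09% of the counts. Of 14 hepatocyte markers 7 were in the table and 6 of these had a mean below 1 CPM, while CPS1 had 1726 ± 45.9 CPM (SD, n = 3). FGA, FGB and CYP2E1 had 0 counts in each library. Of 6 genes listed as biliary and progenitor markers 5 were in the table. The keratins KRT8, KRT7 and KRT18 had means of 2608 to 6409 CPM, SOX9 had 4.43 CPM and KRT19 was at 0. Of 7 stellate and fibroblast markers 6 were found. They were VIM (1104 CPM), COL3A1 (42.5), PDGFRB (31.1), ACTA2 (5.76), DCN (1.75) and COL1A1 (0). The endothelial markers found were ENG (154) and CDH5 (3.07), and the plasma cell markers SDC1 (53.6), MZB1 (0.228) and DERL3 (0). The single immune marker found, CD14, was at 0. These levels were not used to assign a cell type.

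Together the 38 members drew 1.73%, 1.86% and 2.07% of all counts in replicates 1, 2 and 3, with 95% Wilson intervals of 1.71 to 1.75, 1.83 to 1.88 and 2.04 to 2.10 that cover counting error only and do not overlap. Their mean share was 1.89% ± 0.172 (SD, n = 3). The share was highest in replicate 3, the library with the highest share of DDX49 reads, and with DDX49 left out of the totals the members' shares were 1.79%, 1.94% and 2.18%. The 6 mitochondrially encoded genes in the table were ordered alike over the libraries, at 0.742%, 0.887% and 1.09% of the counts. The part of DDX49 and of the mitochondrial RNA in the members' differences was not tested.

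The median member had 144 CPM, against 27.0 CPM for the median over all 10815 genes whose mean reached 1 CPM. On the log2(CPM + 1) scale the median member lay 2.29, 2.37 and 2.57 above that background in replicates 1, 2 and 3, or 2.41 ± 0.14 on average. Of the 38 members 35 had a mean of at least 1 CPM, a level that 81.6% of all genes reached, and 22 had at least 100 CPM, which 15.5% of all genes reached. Above the background median lay 32 members. Reads gather in proportion to transcript length, and lengths were not used here, so CPM values of different genes say how many reads each drew and not how many molecules were present.

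**Figure D1:**
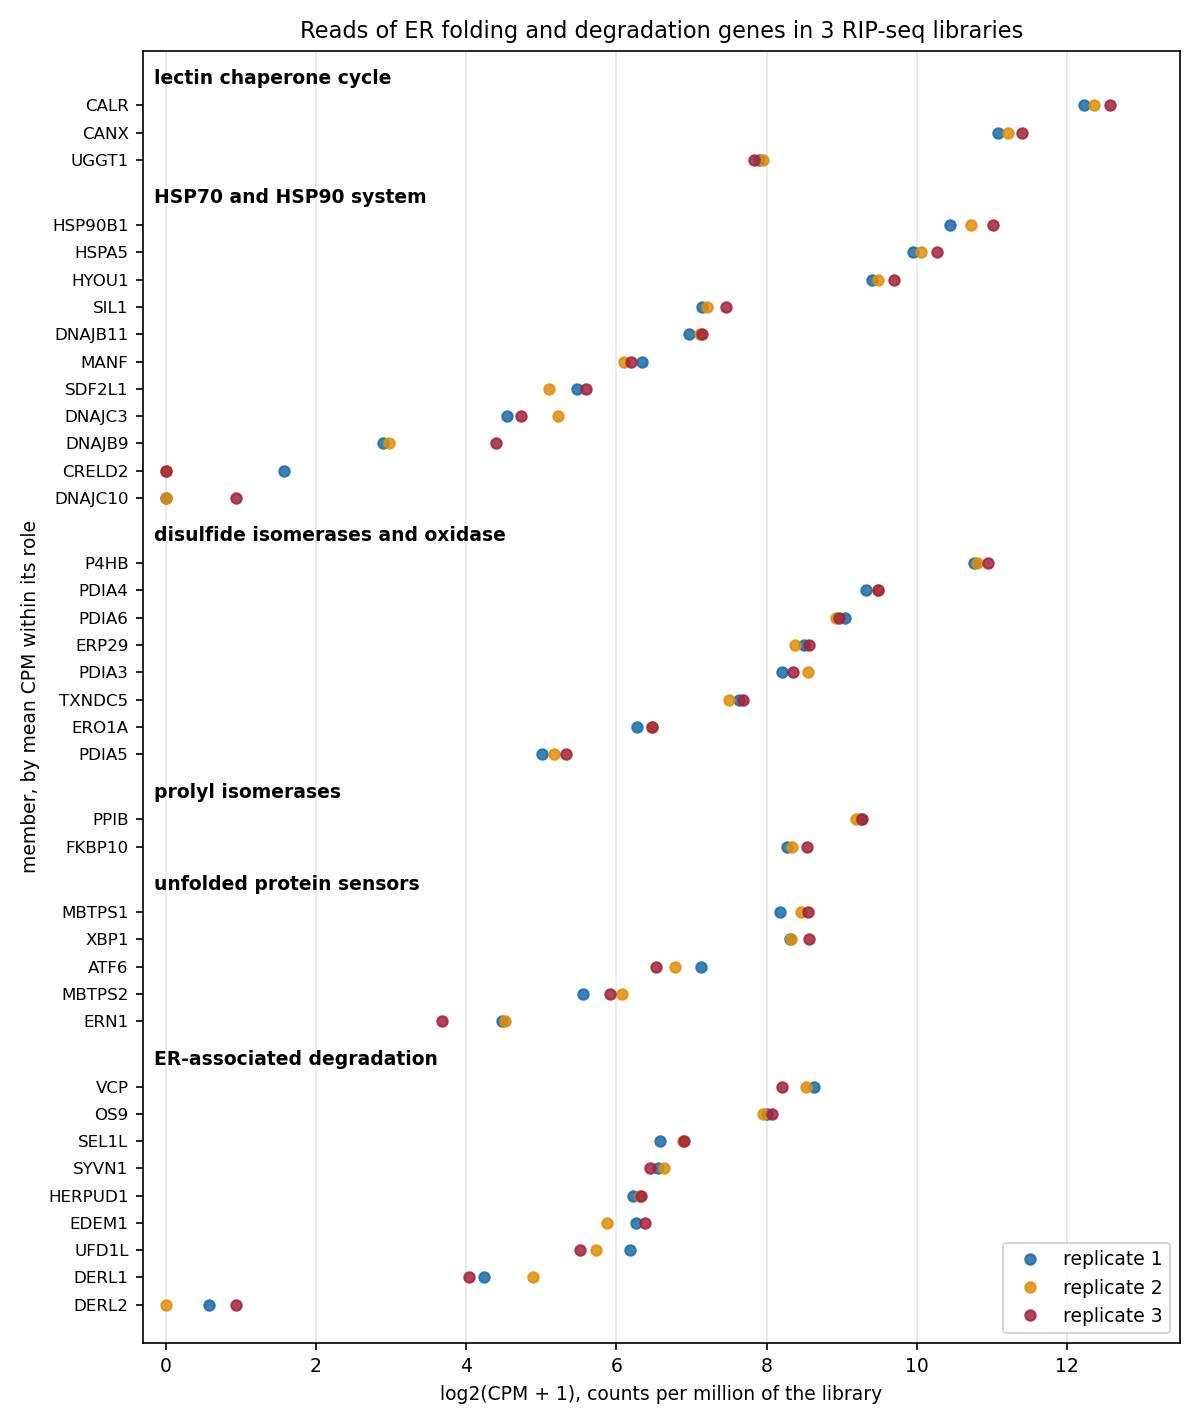
Level of each of the 38 members in the 3 libraries, as log2(CPM + 1) on the horizontal axis, with members grouped by role and sorted by mean CPM within it. Points are single libraries coloured by replicate. CALR lies highest, at 4773 to 6060 CPM, and CRELD2, DERL2 and DNAJC10 lie at or near 0.

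The order of the members was stable from library to library. Of 703 pairs of members, 669 (95.2%) stood in the same order of CPM in all 3 libraries, and 12 members held the same rank in each. No member moved by more than 5 places. Ranks over the members correlated at Spearman rho 0.992, 0.991 and 0.989 for replicates 1 and 2, 1 and 3, and 2 and 3, a description over 38 genes that share their libraries. The first 8 ranks were held by CALR, CANX, P4HB, HSP90B1, HSPA5, HYOU1, PDIA4 and PPIB, and only P4HB and HSP90B1 changed places among them, with HSP90B1 ahead of P4HB in replicate 3. Of the 37 neighbouring pairs in the mean order, 25 had ranges over the libraries that overlapped, among them P4HB and HSP90B1, HYOU1 and PDIA4, and the run from ERP29 through VCP, MBTPS1, XBP1 and FKBP10 to PDIA3. CALR, CANX, P4HB, HSP90B1 and HSPA5, the 5 members among the 100 genes with the most reads, held 65.7% of the members' counts.

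Among the lectin chaperones, calreticulin drew the most reads of any member. CALR (ENSG00000179218, chromosome 19 at 12938609 to 12944489, hg38) had 4773, 5227 and 6060 CPM in replicates 1, 2 and 3 and was 7th of all genes by mean. CANX (ENSG00000127022, chromosome 5 at 179678656 to 179731641), the membrane-bound calnexin, had 2165, 2370 and 2696 CPM. Both were lowest in replicate 1 and highest in replicate 3, by a ratio of 1.27 for CALR between the highest and the lowest library. UGGT1, the glucosyltransferase that marks unfinished glycoproteins for another round of binding, had 239, 246 and 227 CPM and a ratio of 1.08, the reverse order of replicates 1 and 3. The calreticulin reads per calnexin read were 2.20 (95% interval 2.13 to 2.29), 2.21 (2.12 to 2.30) and 2.25 (2.15 to 2.35), with exact binomial intervals that overlap in all 3 libraries, while both genes differed between libraries in the test given below. This and the other read ratios below were chosen after the values were seen.

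The HSP70 and HSP90 system held both high and very low members, with means from 0.304 to 1713 CPM. HSP90B1 (ENSG00000166598, chromosome 12 at 103930410 to 103947926), the ER member of the HSP90 family, had 1389, 1681 and 2070 CPM. HSPA5 (ENSG00000044574, chromosome 9 at 125234853 to 125241343), the ER member of the HSP70 family, had 984, 1066 and 1237 CPM. HYOU1, a large HSP70 relative that exchanges nucleotide on BiP, had 675, 717 and 825 CPM. All 3 genes stood in the same order of libraries, lowest in replicate 1 and highest in replicate 3, with ratios of 1.49, 1.26 and 1.22. HYOU1 reads per HSPA5 read were alike at 0.686, 0.672 and 0.667 with overlapping intervals. HSP90B1 reads per HSPA5 read were 1.41 (1.33 to 1.50) in replicate 1, 1.58 (1.48 to 1.68) in replicate 2 and 1.67 (1.56 to 1.79) in replicate 3, and the intervals of replicates 1 and 3 did not overlap.

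The helpers of BiP drew far fewer reads. SIL1, another exchange factor, had 140, 147 and 175 CPM, and the J-domain protein DNAJB11, which hands unfolded clients to BiP, had 124, 137 and 140 CPM. Both genes were lowest in replicate 1 and highest in replicate 3 and did not pass the test between libraries described below. The secreted, stress-induced MANF (73.3 ± 6.27 CPM), SDF2L1, a partner of DNAJB11 (41.5 ± 7.17), and DNAJC3, a J-domain protein known as an inhibitor of eIF2 kinases (28.0 ± 7.33; SD, n = 3 each), lay between 22.2 and 80.1 CPM in every library. DNAJB9, a J-domain protein that restrains IRE1, stood apart, with 6.43 and 6.84 CPM in replicates 1 and 2 and 20.1 CPM in replicate 3 (95% exact Poisson interval 12.6 to 30.4), where the interval of replicate 2 was 3.28 to 12.6. These values rest on 13, 10 and 22 counts.

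3 members had a mean below 1 CPM. CRELD2, a secreted protein of the stress response, had 4, 0 and 0 counts, DNAJC10, a J-domain protein that reduces disulfides before degradation, had 0, 0 and 1, and DERL2 of the degradation apparatus had 1, 0 and 1. At these depths a gene listed at 0 may hold up to 3 counts, which is 1.48 CPM in replicate 1, 2.05 in replicate 2 and 2.74 in replicate 3. EEF1G, an elongation factor subunit that every cell uses, was listed at 0 in all 3 libraries and the ribosomal protein gene RPL5 at 1, 0 and 0 counts, so counts near 0 in this table do not show that a gene was silent. DERL2 and DNAJC10 each overlap 1 other coding gene in the RefSeq annotation, MIS12 and PDE1A, and CRELD2 overlaps 0.

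Disulfide isomerases drew 4027 ± 178 CPM in sum, close to the 3991 ± 580 CPM of the HSP70 and HSP90 system (SD, n = 3 each). P4HB (ENSG00000185624, chromosome 17 at 81843166 to 81860535), the classical isomerase and a subunit of collagen prolyl hydroxylase, had 1738, 1790 and 1970 CPM. PDIA4, an isomerase with additional thioredoxin domains, had 642, 716 and 716 CPM, and PDIA5, the lowest of the class, had 31.1, 34.9 and 39.2 CPM. The ratios of highest to lowest library were 1.13 for P4HB, 1.11 for PDIA4 and 1.08 for PDIA6, which had 525, 485 and 498 CPM and was among the 3 steadiest members of at least 50 CPM. PDIA3, which works with calnexin and calreticulin, had 294, 375 and 326 CPM. It passed the test between libraries described below, with its highest CPM in replicate 2. Without replicate 1 it did not pass (adjusted p = 0.191, chi-square test), so replicates 2 and 3 were not told apart. PDIA3 overlaps the coding gene ELL3 and has 2 annotated pseudogenes, and whether shared reads were counted is not stated. ERP29 (356 ± 22.3 CPM), an isomerase relative known as an escort for secreted proteins, TXNDC5 (194 ± 12.7) and the oxidase ERO1A (83.7 ± 6.60; SD, n = 3 each), which recharges the isomerases, were also measured.

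The prolyl isomerases were PPIB, or cyclophilin B, and FKBP10, both known for their part in collagen folding. PPIB had 609, 581 and 617 CPM, with the smallest ratio of highest to lowest library of any member of at least 50 CPM, at 1.06. FKBP10 had 308, 322 and 372 CPM with a ratio of 1.21. Neither passed the test between libraries, although the FKBP10 ratio was larger than that of P4HB, which passed on deeper counts.

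The unfolded protein sensors and the proteases that act on them did not move as 1 block. ATF6 (ENSG00000118217, chromosome 1 at 161766320 to 161964070) had 138, 109 and 91.2 CPM and was highest in replicate 1. MBTPS1, the first of the Golgi proteases that cut it, had 289, 352 and 374 CPM and was highest in replicate 3. XBP1 (ENSG00000100219, chromosome 22 at 28794560 to 28800569) had 318, 319 and 377 CPM, and gene counts do not separate its spliced from its unspliced mRNA. ATF6 reads per XBP1 read were 0.435 (95% exact binomial interval 0.377 to 0.502), 0.340 (0.283 to 0.408) and 0.242 (0.193 to 0.302), with the intervals of replicates 1 and 3 apart. MBTPS2, the second protease, had 46.0, 66.4 and 59.3 CPM. ERN1, the lowest of the class, had 21.3, 21.9 and 11.9 CPM from 43, 32 and 13 counts, and did not pass the test at this depth.

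Degradation factors drew 1039 ± 44.8 CPM in sum (SD, n = 3) and, alone among the roles, had their highest sum in replicate 1. That sum leans on VCP, which drew the most reads of the class. Of the 8 tested, 2 were highest in replicate 1, 2 in replicate 2 and 4 in replicate 3, so most members did not share the order of the sums. VCP (ENSG00000165280, chromosome 9 at 35056064 to 35072625), the ATPase that pulls proteins out of the membrane, had 395, 369 and 295 CPM. Its cofactor UFD1L, now named UFD1, had 71.7, 52.0 and 44.7 CPM. Both act in the cytosol and nucleus as well as at the ER, and both were highest in replicate 1 and lowest in replicate 3, with a ratio of 1.34 for VCP and of 1.60 for UFD1L, the largest of any member of at least 50 CPM. OS9, a lectin that reads trimmed sugars on clients, had 256, 247 and 268 CPM, a ratio of 1.09. The core complex of SEL1L (110 ± 13.2 CPM) and its ubiquitin ligase SYVN1 (92.7 ± 5.94), the stress-induced scaffold HERPUD1 (77.2 ± 3.11), the mannosidase-like EDEM1 (71.7 ± 12.8) and the channel component DERL1 (20.7 ± 7.07; SD, n = 3 each) did not pass the test. HERPUD1 was the second steadiest member of at least 50 CPM, with 73.6, 78.7 and 79.3 CPM, and SEL1L reads per SYVN1 read (1.02, 1.19 and 1.37) had intervals that overlapped in all 3 libraries.

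Differences between libraries were tested for each gene with a chi-square test of its 3 counts against the library totals, over every gene that had 30 or more counts in sum and with Benjamini-Hochberg adjustment at 0.05. The test asks whether the libraries differ by more than counting error and compares no conditions. It does not tell which library differs, so the directions given below are only those of the highest CPM. Of the 35 members tested, 12 (34.3%) were called, against 19.6% of the 8633 genes tested. Calls depend on depth, and among genes of at least 100 CPM they came to 10 of 22 members (45.5%), against 29% of 2058 genes. The median ratio of highest to lowest library was 1.22 for these 22 members and 1.18 for the 2058 genes. Over all tested genes the order was the reverse, at 1.247 for the 35 members and 1.380 for the 8633 genes. The cut at 100 CPM does not match depth above it, and 5 members were among the 100 genes with the most reads. Whether members differed more often than genes of equal depth was not tested.

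Highest in replicate 3 were 8: CALR and CANX, HSP90B1, HSPA5, HYOU1 and DNAJB9, P4HB and MBTPS1. The share of all tested genes called with that direction was 6.66%, and it was 11.6% among genes of at least 100 CPM, where the members counted 7 of 22. Highest in replicate 1 were 3 members, ATF6, VCP and UFD1L, against 8.93% of tested genes, and highest in replicate 2 was PDIA3, against 4% of them. Among those of at least 100 CPM the shares were 12.4% for replicate 1, with VCP and ATF6, and 4.96% for replicate 2, with PDIA3. Whether called or not, 22 of the 35 tested members had their highest CPM in replicate 3, which holds for 31.2% of all tested genes, while 8 were highest in replicate 2 (28% of genes) and 5 in replicate 1 (40.7% of genes). Among the members and genes of at least 100 CPM, the median log2 ratio of replicate 3 over replicate 1 was 0.18 for members and -0.04 for all genes. CALR, CANX and HSP90B1 were called under each of 9 other settings, and DNAJB9 under the 7 that tested it, while the other 8 calls were lost in at least 1. Without replicate 3 the calls of HSPA5, HYOU1, P4HB, VCP, ATF6 and UFD1L were lost, and 5 members were called where 5.8% of genes were. Without replicate 1 the calls of PDIA3, ATF6, MBTPS1 and UFD1L were lost, where 6.77% of genes were called, and without replicate 2 that of PDIA3, where 16.6% were. UFD1L was also lost with TMM or DESeq2 scaling of the libraries.

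**Figure D2:**
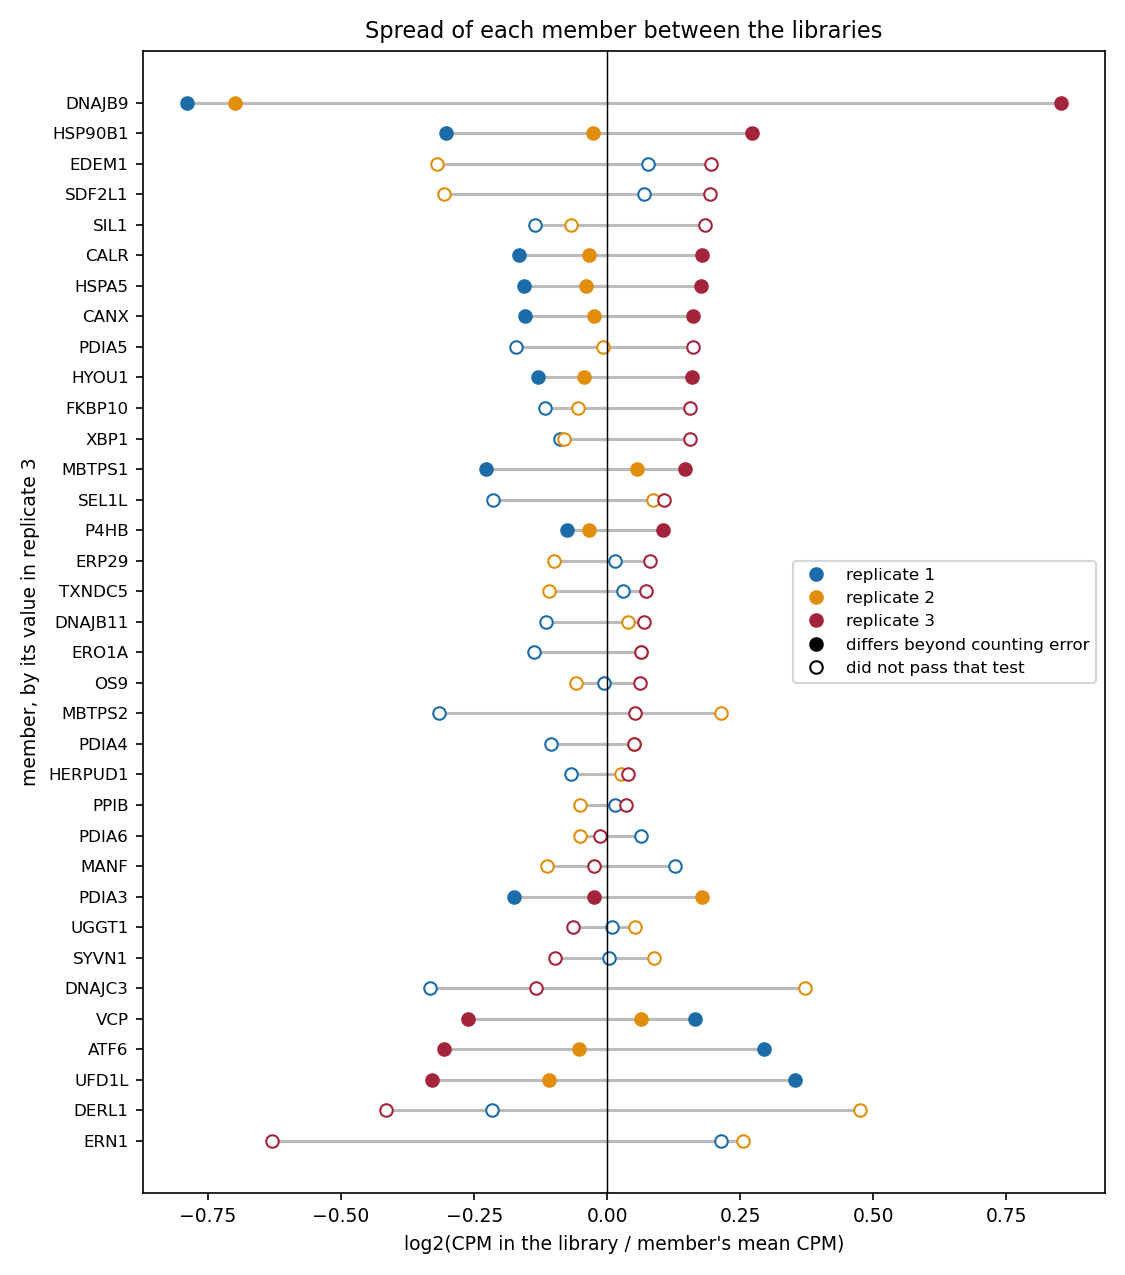
Each of the 35 tested members in the 3 libraries, as log2 of its CPM over its own mean CPM, sorted by the value in replicate 3. Points are single libraries, filled where the member differed by more than counting error and open where it did not pass that test. The 8 filled members with replicate 3 on the right include CALR, CANX, HSPA5 and HSP90B1, and ATF6, VCP and UFD1L have it on the left.

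Summed by role, the lectin chaperone cycle had 7176, 7843 and 8982 CPM in replicates 1, 2 and 3, and the HSP70 and HSP90 system 3466, 3894 and 4614 CPM. The second sum was 1.33 times as high in replicate 3 as in replicate 1. Disulfide isomerases (3865, 4000 and 4217 CPM), prolyl isomerases (917, 903 and 989 CPM), sensors (812, 868 and 913 CPM) and degradation factors (1079, 1048 and 990 CPM) differed by 1.09 to 1.12 times. Among the members' own counts, the HSP70 and HSP90 system took 20.0%, 21.0% and 22.3%, and degradation factors 6.23%, 5.65% and 4.78%. VCP reads per CALR read were 0.0829 (95% exact binomial interval 0.0770 to 0.0891), 0.0705 (0.0645 to 0.0770) and 0.0486 (0.0433 to 0.0544), and the interval of replicate 3 lay apart from the other two.

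**Figure D3:**
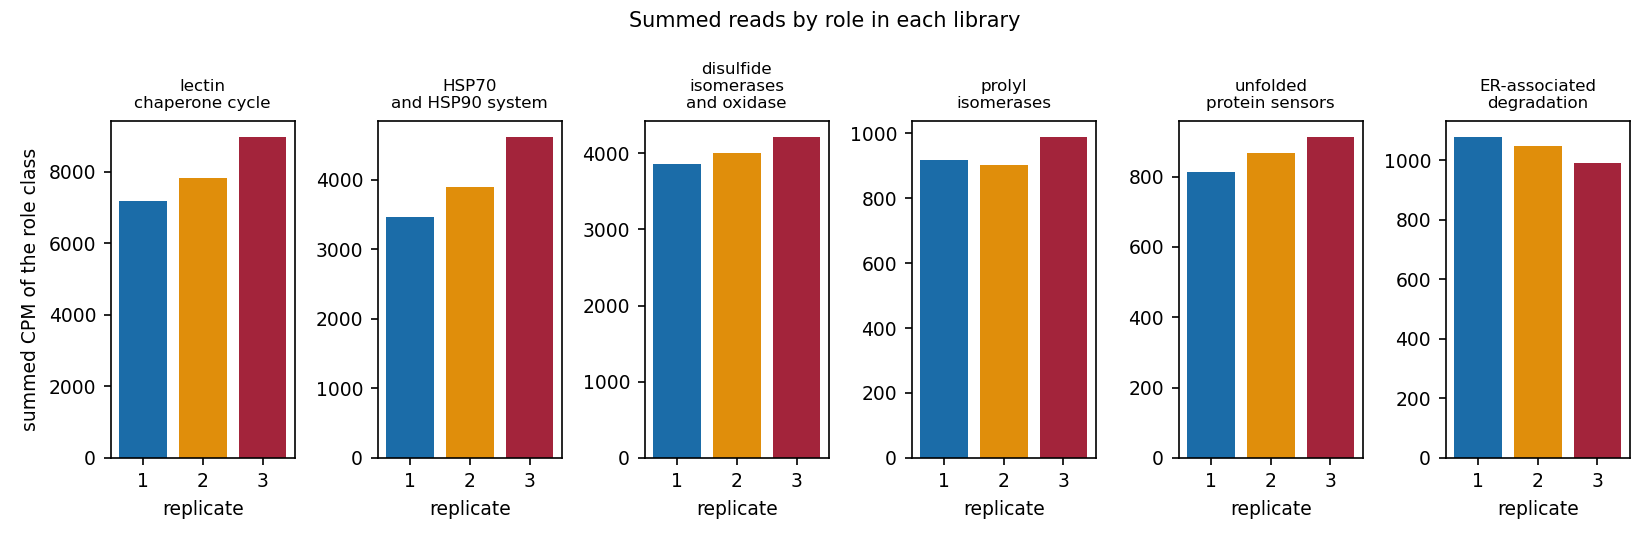
Summed CPM of the members of each role in replicates 1, 2 and 3, with 1 panel per role and vertical axes that start at 0 and differ between panels. Bars are single libraries. The first 2 roles are highest in replicate 3 (8982 and 4614 CPM), and ER-associated degradation is highest in replicate 1 (1079 CPM).

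ATF6 and XBP1 are known to switch on many genes of this machinery, and the members' promoters were read for the letters these factors are known to bind. The motifs were sought with the members' values known, and whether they bear on the differences between libraries was not tested. The ER stress element (ERSE) is CCAAT, a box for the factor NF-Y, then any 9 bases, then CCACG for ATF6 or XBP1. ERSE-II is ATTGG, then any 1 base, then CCACG. Both were searched on both strands in windows of 300 bases, 250 before to 50 after each start that the promoter table lists (RefSeq, GRCh38.p14), which 34 of the 38 members had in the table, all but PDIA3, FKBP10, DERL1 and UFD1L. An ERSE was present in the windows of 7 members, CALR, CANX, HSPA5, HSP90B1, PDIA6, XBP1 and CRELD2, and an ERSE-II in those of HYOU1, SDF2L1 and HERPUD1. A gene was counted if any of its windows held a match. The ERSE carriers were 20.6% and the ERSE-II carriers 8.82% of the 34 members, against 0.151% and 0.132% of the 10608 table genes with a window. Those table genes include the members. Since both factors are known to act on this machinery, an excess was set in advance and is no result of these libraries. The 250 bases before the start are shown 5′ to 3′ on the gene's strand for the 5 members with the most reads among those with a match, with the matches in capitals. Where the capitals open with CGTGG, the element runs on the opposite strand. For CANX the match lies in 3 overlapping windows of different starts, of which 1 is shown, and the windows of CANX and PDIA6 with a match belong to starts inside the gene span and not at its outer end.
CALR (chr19:12938359-12938608, plus strand, ERSE at -225 to -207): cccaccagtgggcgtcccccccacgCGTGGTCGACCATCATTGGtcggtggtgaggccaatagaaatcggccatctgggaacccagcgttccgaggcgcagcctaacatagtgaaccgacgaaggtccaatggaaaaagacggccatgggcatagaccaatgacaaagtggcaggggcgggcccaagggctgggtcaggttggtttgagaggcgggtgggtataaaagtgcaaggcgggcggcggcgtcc
CANX (chr5:179698679-179698928, plus strand, ERSE at -151 to -133): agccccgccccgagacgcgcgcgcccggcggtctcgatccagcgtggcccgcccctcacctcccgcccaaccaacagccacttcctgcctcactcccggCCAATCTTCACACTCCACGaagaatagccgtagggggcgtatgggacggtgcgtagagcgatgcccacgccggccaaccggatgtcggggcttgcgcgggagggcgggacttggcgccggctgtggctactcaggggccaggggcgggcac
HSP90B1 (chr12:103930160-103930409, plus strand, ERSE at -194 to -176 and -89 to -71): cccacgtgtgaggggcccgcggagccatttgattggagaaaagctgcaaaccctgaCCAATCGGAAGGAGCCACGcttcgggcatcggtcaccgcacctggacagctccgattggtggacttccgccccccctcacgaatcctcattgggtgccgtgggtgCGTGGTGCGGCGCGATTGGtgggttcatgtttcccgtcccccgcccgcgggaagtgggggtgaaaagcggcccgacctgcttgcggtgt
HSPA5 (chr9:125241344-125241593, minus strand, ERSE at -66 to -48): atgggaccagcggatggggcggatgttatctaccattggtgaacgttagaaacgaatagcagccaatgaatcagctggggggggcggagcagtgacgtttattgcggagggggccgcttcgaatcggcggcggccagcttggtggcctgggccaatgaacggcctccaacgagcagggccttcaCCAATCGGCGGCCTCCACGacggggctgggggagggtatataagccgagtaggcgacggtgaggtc
HYOU1 (chr11:119057206-119057455, minus strand, ERSE-II at -185 to -175 and -79 to -69): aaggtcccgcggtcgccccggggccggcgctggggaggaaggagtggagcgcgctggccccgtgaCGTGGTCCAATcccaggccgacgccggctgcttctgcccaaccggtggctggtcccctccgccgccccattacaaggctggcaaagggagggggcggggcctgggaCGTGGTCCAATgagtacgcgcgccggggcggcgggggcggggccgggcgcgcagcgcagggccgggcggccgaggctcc

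The matches of the remaining 5 members are shown with 25 bases on either side, so that the elements can be set beside those above.
PDIA6 (chr2:10812828-10812896, minus strand, ERSE at -86 to -68): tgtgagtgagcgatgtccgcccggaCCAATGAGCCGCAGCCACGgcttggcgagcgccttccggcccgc
XBP1 (chr22:28800578-28800646, minus strand, ERSE at -52 to -34): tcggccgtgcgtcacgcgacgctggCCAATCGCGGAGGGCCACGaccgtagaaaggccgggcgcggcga
HERPUD1 (chr16:56932000-56932060, plus strand, ERSE-II at -117 to -107): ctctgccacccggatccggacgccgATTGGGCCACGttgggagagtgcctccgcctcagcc
SDF2L1 (chr22:21642089-21642149, plus strand, ERSE-II at -188 to -178): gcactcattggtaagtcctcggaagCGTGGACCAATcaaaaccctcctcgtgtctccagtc
CRELD2 (chr22:49918529-49918597, plus strand, ERSE at -80 to -62): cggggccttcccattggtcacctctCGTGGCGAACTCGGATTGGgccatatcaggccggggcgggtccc

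Outside the members 20 table genes carried either element. One further motif, TGACGTGG, the XBP1-type element UPRE, was found in the windows of HYOU1, where it overlaps an ERSE-II, DNAJC10, TXNDC5 and VCP (11.8% of members, against 1.17% of table genes). These matches are letters in a window, and RIP-seq does not measure binding to DNA.

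**Figure D4:**
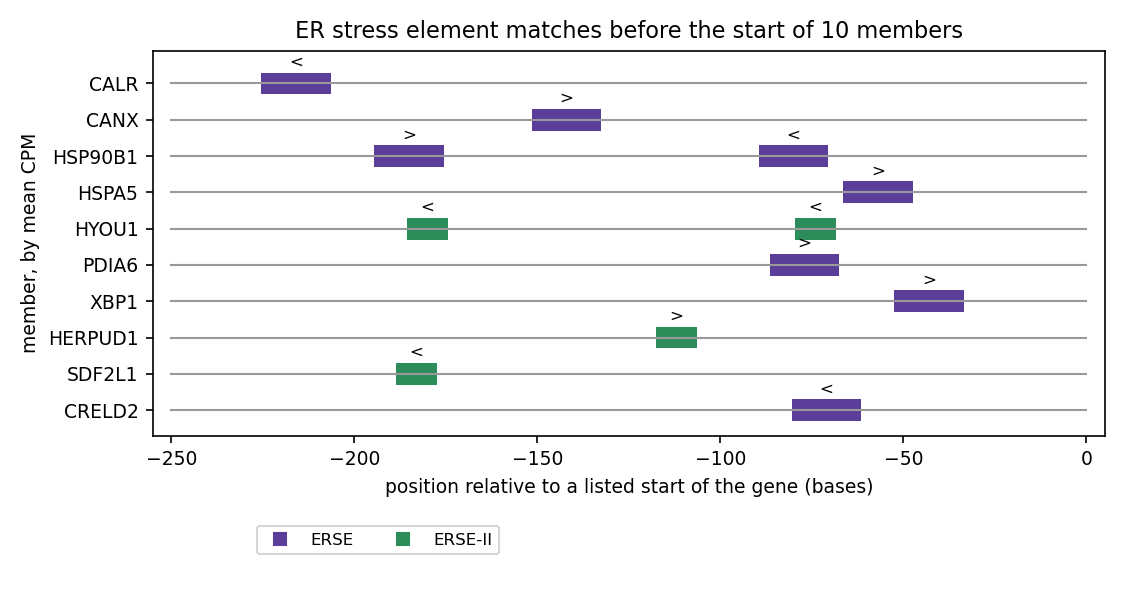
Positions of ERSE and ERSE-II matches in the 250 bases before a listed start of 10 members, sorted by mean CPM, with that start at 0 on the horizontal axis. Boxes are matches and the mark above each gives its strand relative to the gene. HSP90B1 and HYOU1 carry 2 matches each and the others 1.

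Further genes of the same machinery, in 6 lists of other ER functions, were set beside the members. Of 108 listed genes 101 were found, with a median of 58.5 CPM. Of 85 tested 17 were called, against the 19.6% of all tested genes given above. Of the 17 called, 3 were highest in replicate 1, 3 in replicate 2 and 11 in replicate 3. The shares of all tested genes called in those directions were 8.93%, 4% and 6.66%. Among translocation genes, which bring new proteins to the ER, 4 of 19 were called. SRP14 (374, 328 and 399 CPM), TRAM1 (172, 234 and 243 CPM) and SEC61B (33.1, 23.3 and 45.6 CPM) were highest in replicate 3, while SRP68 (154, 172 and 106 CPM) was highest in replicate 2 and lowest in replicate 3. Among oligosaccharyltransferase and glucosidase genes, which attach and trim sugars, 3 of 13 were called, all highest in replicate 3, among them the subunit RPN2 with 452, 477 and 556 CPM.

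Other thiol and prolyl enzymes had 2 of 16 called, with the peroxiredoxin PRDX4 at 251, 310 and 303 CPM. Other degradation factors had 5 of 23 called, with 3 highest in replicate 1 and 2 in replicate 3. Those highest in replicate 1 were the client-holding factor BAG6 (720, 624 and 588 CPM), the conjugating enzyme UBE2J1 (57.3, 36.3 and 21.9 CPM) and the ligase RNF5 (48.4, 35.6 and 26.4 CPM), which stood in the same order of libraries as VCP and UFD1L. The VCP recruiter FAF2 (131, 103 and 148 CPM) was highest in replicate 3. In the kinase arm of the stress response 3 of 11 were called: the transcription factor ATF4 (323, 307 and 397 CPM), the phosphatase subunit PPP1R15B (246, 257 and 318 CPM) and the factor DDIT3 (50.4, 79.4 and 69.3 CPM). The kinase itself, EIF2AK3, had 44.0, 60.2 and 44.7 CPM and did not pass. The 4 ER-phagy receptors tested did not pass. The pathway column of the deposited table assigned 108 further genes to protein processing in the ER, and of 93 tested 23 were called, where 19.6% of all tested genes were. Of the 23, 9 were highest in replicate 1 (8.93% of all tested genes) and 9 in replicate 3 (6.66%).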

How the data were processed

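RIP-seq counts of 3 libraries of 1 group were used. The values are unnormalized whole-number counts for each gene as deposited, and the submitters' processing notes name CASAVA 1.4 and hg38. The aligner, the counter, the strand setting and any handling of shared reads were not given in those sources. A further 3 per-sample columns, normalized by edgeR per the file headers, were not used. Counts were scaled to 1000000 per library (CPM), with 1 CPM added before any log2. No length per transcript was used, so the planned order per coding length was not formed. Positions and older names were resolved through RefSeq for GRCh38, the assembly of hg38.

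The members and lists were chosen with earlier results of these data known. Values in every library were given, by rule, for the 2 highest and the lowest member of each role, for the 3 members each with the largest and smallest ratio of highest to lowest library among those of at least 50 CPM, and for members below 5 CPM; further members were added after seeing values. With 1 group there is no contrast for edgeR, so the chi-square test was used across all genes. Counts of 8633 genes were simulated with counting error only, which is the assumption of the test itself. On these it called 0 with no change. Of 200 genes changed in replicate 3 it recovered 8.5% at 1.25-fold, 29.5% at 1.5-fold, 66% at 2-fold and 99% at 4-fold, with 0, 2, 5 and 184 unchanged genes also called. The simulation cannot show how the test behaves where libraries hold further spread. No molecular identifiers are mentioned, so intervals cover counting error only. Alternatives were TMM and DESeq2 scaling, totals without DDX49, other minimums, backgrounds and pseudocounts, and leaving out each replicate. Python 3.11.15 (numpy 2.4.6, scipy 1.17.1, pandas 2.3.3, matplotlib 3.10.9) and R 4.3.3 (edgeR 4.0.16, DESeq2 1.42.0) were used.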

Additional observations from a re-analysis of the deposited data

How the results depend on the processing

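Under the other settings tried, values stayed within the spread between replicates, or counts within 1.5 times, except those given here. This covers the share of counts, the role shares, the order of pairs and the calls. Leaving out 1 replicate cannot move a mean beyond that spread or lower the number of pairs ordered alike. The role shares and the order of pairs had no other alternatives, so this rule could not fail for them. The number of members called was 12, and 5 without replicate 3, where 5.8% of 8176 genes were called. Leaving out replicate 1, 2 or 3 gave 8, 13 and 5, where 6.77%, 16.6% and 5.8% of genes were called. TMM and DESeq2 scaling each gave 14, where 18.6% and 18.5% of genes were called. Totals without DDX49 gave 15, where 19.2% were. In each of these scalings 11 of the called members were highest in replicate 3, since FKBP10, PDIA4 and XBP1 then passed. The share of all genes called in that direction was not formed for these scalings. Fewer libraries also leave fewer counts to test. The median member's distance from the background median was 2.41, 2.09 after adding 10 CPM before the log, 3.05 against all genes unfiltered and 1.63 against genes of at least 10 CPM, since the background median moves with its filter. Of the members' single calls, 93 of 106 were kept and 13 lost under the alternatives. The directions of single calls were not compared between settings. Chosen after seeing the data, leaving out CALR gave a combined share of 1.35%, and leaving out ERO1A a distance of 2.48 and the same 12 calls. No paired analysis was possible because all libraries belong to 1 group. The order per coding length was not run. Depth limits members below about 30 counts in sum. Of changes of 1.5-fold in counts of 8633 genes simulated with counting error only, 29.5% were recovered, and 80.4% among genes of at least 100 CPM.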
